A study of Saccharomyces cerevisiae with 4 samples.

Results

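The 298 gene rows described here lay within 20 kb of a chromosome end of budding yeast (Saccharomyces cerevisiae), in the region called the subtelomere. They were taken by position from the 6720 rows with a gene ID in the authors' deposited expression table: on the 16 nuclear chromosomes, a row was kept when it ended at base 20000 or earlier, or started no more than 20000 nt before the largest row end on that chromosome. The window held 324 rows, and 26 whose names start with ADH, PHO, MAL, HXT, FDH, MMP, THI, SNZ or SNO were left out by name, so these 298 are not every gene near an end. The other 6390 nuclear gene rows, those 26 included, served for comparison. The rule uses only position and name and no expression value, but it was set with earlier results of these data known. RNA sequencing of total RNA was done in 4 libraries of cells labelled wild type, whose strain background is not given in the sources used here. All grew in synthetic complete medium at 30 °C, with 0.05% glucose for calorie restriction (CR) or 2% glucose for the non-restricted condition (NR), and each condition had 2 libraries, A and B, labelled as biological replicates; nothing more is said of separate cultures. The table gives 1 FPKM per row and library, a number of fragments divided by gene length and by the library's mapped fragments, so levels can be compared between genes of different length.

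Yeast chromosome ends carry short telomeric repeats and, inside them, repeated blocks called X and Y' elements. The silencing proteins Sir2, Sir3 and Sir4 bind near many ends and keep nearby chromatin poorly transcribed, and Sir2 uses NAD+, which ties it to metabolism. The adjoining DNA holds gene families whose copies recur at many ends, such as the Y' helicase genes (YRF1), the COS genes for membrane proteins that act in sorting other proteins to the vacuole, and the PAU genes for small cell wall proteins known from anaerobic growth. Genes for sugar, iron and amino acid uptake, used under particular nutrient conditions, also lie there.

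The coding starts of 5 COS genes and 4 PAU genes show how alike the copies at different ends are, which bears on whether a short read can be given to 1 of them. They were read from the R64 reference (RefSeq), 5′ to 3′ along the coding strand, 90 nt each, and capitals mark the letters that differ from the first sequence of each family when the sequences are laid side by side without gaps.
COS3 (chrXIII:7244-7333, plus strand): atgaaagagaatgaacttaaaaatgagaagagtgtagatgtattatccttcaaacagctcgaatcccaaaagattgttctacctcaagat
COS2 (chrII:811390-811479, minus strand): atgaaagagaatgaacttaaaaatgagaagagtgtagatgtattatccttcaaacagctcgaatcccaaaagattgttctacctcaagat
COS4 (chrVI:6426-6515, plus strand): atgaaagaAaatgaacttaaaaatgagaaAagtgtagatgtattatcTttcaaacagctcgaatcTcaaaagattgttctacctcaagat
COS8 (chrVIII:6401-6490, plus strand): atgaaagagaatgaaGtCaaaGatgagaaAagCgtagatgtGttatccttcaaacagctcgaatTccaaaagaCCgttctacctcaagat
COS12 (chrVII:2790-2879, plus strand): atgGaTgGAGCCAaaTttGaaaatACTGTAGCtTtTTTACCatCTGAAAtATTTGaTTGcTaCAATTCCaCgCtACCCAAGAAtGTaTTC
PAU1 (chrX:9049-9138, minus strand): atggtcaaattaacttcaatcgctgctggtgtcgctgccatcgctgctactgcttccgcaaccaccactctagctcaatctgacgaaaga
PAU14 (chrIX:9066-9155, minus strand): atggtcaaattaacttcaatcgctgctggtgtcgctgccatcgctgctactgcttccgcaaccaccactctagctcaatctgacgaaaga
PAU6 (chrXIV:781918-782007, plus strand): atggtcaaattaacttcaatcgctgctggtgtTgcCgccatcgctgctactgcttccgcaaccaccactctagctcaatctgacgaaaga
PAU12 (chrVII:1080306-1080395, plus strand): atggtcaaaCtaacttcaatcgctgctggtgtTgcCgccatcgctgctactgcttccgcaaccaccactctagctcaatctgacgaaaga
COS2 had no letter that differed from COS3, COS4 had 4, COS8 had 9 and COS12 had 63. PAU14 had no letter that differed from PAU1, PAU6 had 2 and PAU12 had 3.

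Upstream sequence is shown for 4 genes with large differences between the conditions, chosen after their values were seen: MHT1, AGP3 and MSC1, which were higher in CR, and FET4, which was lower. Each run is the 300 nt before the coding start in R64, 5′ to 3′ along the gene's strand, with capitals at matches, on either strand, to the letters CCCCT (the stress response element of Msn2 and Msn4), TGTGGC (the core bound by Met31 and Met32 of sulfur metabolism) or GCACCC (the core bound by the iron regulator Aft1).
MHT1 (chrXII:17614-17913, minus strand): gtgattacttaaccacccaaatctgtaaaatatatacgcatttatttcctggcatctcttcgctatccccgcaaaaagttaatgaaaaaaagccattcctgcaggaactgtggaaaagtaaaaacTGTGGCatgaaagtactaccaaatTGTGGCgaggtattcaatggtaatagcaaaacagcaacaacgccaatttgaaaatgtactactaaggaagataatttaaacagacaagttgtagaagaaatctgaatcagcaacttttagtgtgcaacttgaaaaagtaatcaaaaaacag
AGP3 (chrVI:16704-17003, plus strand): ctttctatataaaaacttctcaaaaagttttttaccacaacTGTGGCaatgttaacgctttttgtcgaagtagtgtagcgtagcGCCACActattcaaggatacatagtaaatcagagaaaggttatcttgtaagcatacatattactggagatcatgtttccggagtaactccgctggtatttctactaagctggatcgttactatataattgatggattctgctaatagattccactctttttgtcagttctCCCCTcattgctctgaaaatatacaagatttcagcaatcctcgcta
MSC1 (chrXIII:16677-16976, minus strand): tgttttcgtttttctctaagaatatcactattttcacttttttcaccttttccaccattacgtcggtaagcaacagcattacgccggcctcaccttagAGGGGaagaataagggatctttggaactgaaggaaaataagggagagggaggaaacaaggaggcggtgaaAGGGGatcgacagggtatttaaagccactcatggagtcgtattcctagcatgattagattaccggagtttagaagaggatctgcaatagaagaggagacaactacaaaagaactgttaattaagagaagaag
FET4 (chrXIII:914539-914838, minus strand): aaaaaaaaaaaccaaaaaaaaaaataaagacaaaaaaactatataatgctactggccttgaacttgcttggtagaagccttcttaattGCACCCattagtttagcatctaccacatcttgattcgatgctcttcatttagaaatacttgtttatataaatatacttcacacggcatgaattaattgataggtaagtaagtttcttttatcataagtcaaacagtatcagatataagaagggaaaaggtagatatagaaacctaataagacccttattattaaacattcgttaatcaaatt
MHT1 held 2 matches to TGTGGC, AGP3 held 2 to TGTGGC and 1 to CCCCT, MSC1 held 2 to CCCCT, and FET4 held 1 to GCACCC. A match is a run of letters and says nothing about binding, and a GCACCC and a CCCCT match can share bases. Of 6001 such windows in the genome, 22.2% held CCCCT, 8.10% held TGTGGC and 4.07% held GCACCC. Of 210 windows of the subtelomeric genes, 47 (22.4%), 18 (8.57%) and 17 (8.10%) held them. Among the 16 windows of genes called higher in CR, 5 held CCCCT, 4 held TGTGGC and 0 held GCACCC, and among the 14 of genes called lower, 5, 0 and 1 did. Among the 79 of tested subtelomeric genes with no call, 15 (19.0%), 10 (12.7%) and 7 (8.86%) did. MHT1 and AGP3, chosen for display, are among the 4 with TGTGGC.

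No read totals were used and the depth is unknown. The subtelomeric rows held 1.45% and 1.24% of the FPKM of all gene rows in the CR libraries, against 0.525% and 0.601% in the NR ones. Of the summed 25531 and 19391 FPKM in CR, HXK1 alone gave 10328 and 4921. In NR it gave 1347 and 2279 of 9047 and 10855 FPKM. MSC1 gave 3506 and 3313 FPKM in CR and 749 and 1098 FPKM in NR. COX14 gave 3152 and 1860 FPKM in CR and 666 and 740 FPKM in NR. The higher share in CR thus lay largely in a few abundant rows. Of the 8 most abundant rows, YMR315W-A had the lower mean in CR, 208 against 244 FPKM. Library CR B stood apart: rows without a gene ID held 87.2% of its total FPKM, against 27.4% in CR A and 34.0% and 29.9% in the NR libraries. Counts of calls are therefore also given without CR B. FPKM is a relative measure of a culture's RNA, so fewer cells using a gene and less of its RNA per cell cannot be told apart.

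Many of the rows carried no signal in any library. Of the 298 rows, 109 (36.6%) were listed at 0 FPKM in all 4 libraries, against 76 of 6390 other nuclear rows (1.19%). Sequence repetition moved with these zeros. Each row was cut into all its 32-nt stretches, and the share of these that occurs only once in R64 was counted. Of the 109 rows at 0, 101 had fewer than 50% unique stretches, and 73 had no unique stretch at all. Only 1 of the 74 subtelomeric rows without a unique stretch had any value, YLL066C, with 0.033 FPKM in CR B and 0.0079 FPKM in NR B as its only values above 0. Elsewhere in the nucleus 72 of the 76 rows at 0 were likewise below 50%, and all 65 rows without a unique stretch were at 0. How the authors handled reads with several matches is not given in the sources used here, so a 0 in a repeated row cannot be told apart from an unexpressed gene. The other 8 rows at 0 had 50% or more unique stretches, and only 1 of these 8, YOL166W-A, is listed in RefSeq.

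Levels were low near the ends also among rows with 50% or more unique stretches. The median of all subtelomeric rows was 0.185 and 0.182 FPKM in CR A and CR B, and 0.251 and 0.216 FPKM in the NR libraries. For other nuclear rows it was 61.2 and 56.4 FPKM in CR, and 56.0 and 51.5 FPKM in NR. Among rows with 50% or more unique stretches, the 131 subtelomeric rows had medians of 19.1 and 19.7 FPKM in CR and 21.5 and 23.4 FPKM in NR, below the 63.7, 58.7, 58.2 and 53.4 FPKM of 6194 other rows in CR A, CR B, NR A and NR B. Restricted further to the 97 RefSeq genes that overlap no other row, the subtelomeric medians were 26.2 and 25.0 FPKM in CR, and 21.7 and 24.03 FPKM in NR. The 4999 comparable rows elsewhere had 67.2 and 60.2 FPKM in CR, and 61.1 and 56.5 FPKM in NR. The order was the same in each library and each selection of rows, and no test was made of it.

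The level was higher farther from the end. By R64 chromosome ends, 94 rows lay 0 to 5 kb from the end, 83 lay 5 to 10 kb, 69 lay 10 to 15 kb and 51 lay 15 to 20 kb, and 1 row, YMR315W-A, lay at 20.038 kb and is in none of these bins. The share listed at 0 was 61.7%, 38.6%, 21.7% and 7.84% in that order, with 2.27% at 20 to 40 kb and 1.11% farther in. Among rows of 50% or more unique stretches, the median within 5 kb was 0.295 and 1.5 FPKM in CR, against 0.839 and 0.882 FPKM in NR. It rests on 21 rows, of which 14 are in RefSeq, 6 overlap another row and 6 were at 0 in all libraries. At 5 to 10 kb the median was 15.6 and 15.9 FPKM in CR, against 12.7 and 16.8 FPKM in NR. At 10 to 15 kb it was 26.3 and 30.8 FPKM in CR, against 26.2 and 25.7 FPKM in NR. Rows at 15 to 20 kb had 61.3 and 56.1 FPKM in CR, against 42.8 and 43.2 FPKM in NR, beside 48.5 and 48.7 FPKM in CR and 44.6 and 39.9 FPKM in NR at 20 to 40 kb. In both conditions the median was thus lowest within 5 kb of the end, and by 15 to 20 kb it had reached that of the next 20 kb.

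**Figure D1:**
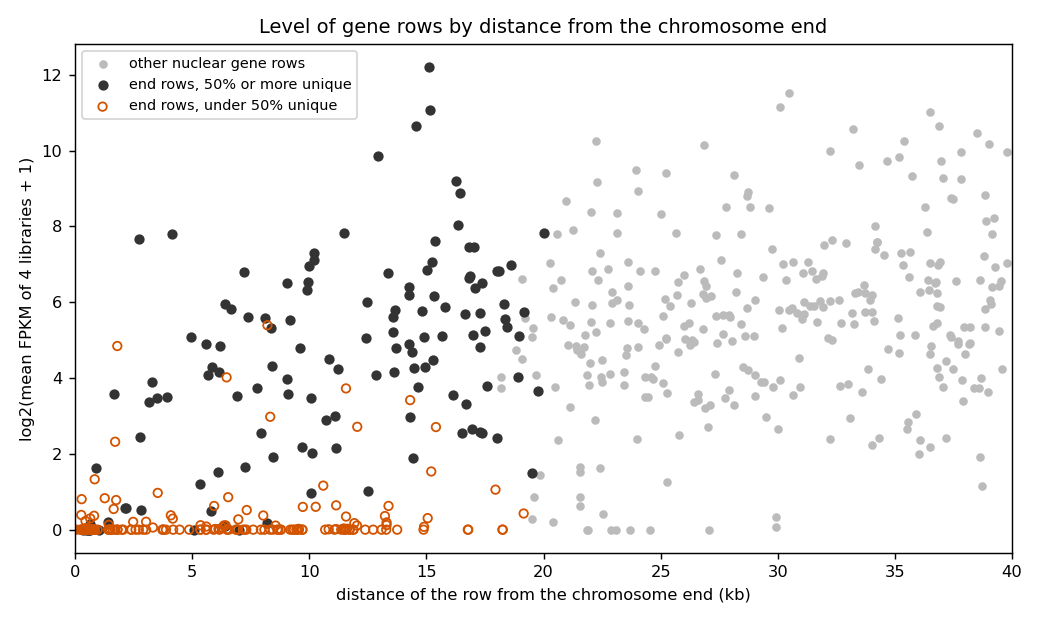
Mean level over the 4 libraries, as log2(FPKM + 1), of gene rows in the 40 kb next to a chromosome end, against the distance of the row from the end in kb. Filled dark points are subtelomeric rows with 50% or more unique 32-nt stretches, open points those with fewer, and grey points other nuclear rows. The 26 rows of the window left out by name are not drawn. Most open points lie at or near 0.

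The rule cuts the chromosome at a fixed distance. Just inside the edge were YIL171W, with 0.778 and 0.700 FPKM in CR and 1.32 and 4.43 FPKM in NR, YPR195C, with 10.7 and 7.87 FPKM in CR and 16.1 and 11.6 FPKM in NR, and the decarboxylase gene FDC1, with 61.4 and 55.5 FPKM in CR and 65.0 and 61.3 FPKM in NR. Just outside were YER184C, with 13.9 and 20.001 FPKM in CR and 13.9 and 13.0 FPKM in NR, the maltose regulator gene MAL13, with 43.0 and 38.2 FPKM in CR and 50.1 and 58.1 FPKM in NR, and YHR214W, with 0.365 and 0.109 FPKM in CR and 0.082 and 0.066 FPKM in NR. Rows averaging under 5 FPKM and rows averaging over 40 FPKM stood on both sides.

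The comparison of CR with NR asked which of these genes differed with the glucose supply. It was made with limma on log2(FPKM + 1) over the 6355 rows averaging at least 1 FPKM, with Benjamini-Hochberg adjustment over all of them, and a call is an adjusted p below 0.05. Every log2 fold is CR over NR of FPKM + 1 and so is too small for low genes. Of the 298 subtelomeric rows, 109 were at 0, 62 were above 0 with a mean under 1 FPKM, and 127 were tested. Of these, 20 were higher and 17 lower in CR, 37 (29.1%) in all, against a background of 30.9% called over all tested rows (17.7% higher, 13.2% lower). The share is close to the background, so the tested rows kept here were called about as often as genes elsewhere. Of the rows left out by name, 10 were tested, with 8 higher and 1 lower. With these names kept, 28 of 137 tested rows were higher and 18 lower (33.6% called). Both CR libraries lay above both NR libraries for 58 rows and below for 34, together 72.4%, against 73.0% of all tested rows. The median log2 fold of the tested subtelomeric rows was 0.13, against 0.06 for other nuclear rows.

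These counts rested on the libraries used. With NR A left out limma called 0 rows higher and 3 lower (17 and 19 at an unadjusted p below 0.05), and with NR B left out it called 4 higher and 2 lower. Without CR A 33 were higher and 24 lower, and without CR B 28 and 20. Of the 37 calls, 2 (FET4 and YLR466C-B) were made whichever of the 4 libraries was left out, 5 in 3 of these 4 fits, and 30 only in the fits without CR A and without CR B. With no filter on low values 12 of the 37 also lost their calls: HXK1, YBR296C-A, YIR036W-A, AAD16, YCR099C, YCR100C and YNR071C of those higher in CR, and YEL074W, IMD2, COS10, COS6 and YFR056C of those lower. YCR100C and YIR036W-A also lost theirs after median scaling of the libraries. YLR466C-B was at 0 FPKM in both CR libraries, against 46.0 and 14.8 FPKM in NR. Without an NR library its own replicate spread was therefore 0, so those fits say little of how stable this row is. The SD between replicates, as a root mean square over the tested subtelomeric rows, was 0.46 (log2) in CR and 0.33 in NR. With 2 against 2 libraries an exact permutation test of a single row cannot reach 0.05, and p-values measure only the spread between these samples.

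**Figure D2:**
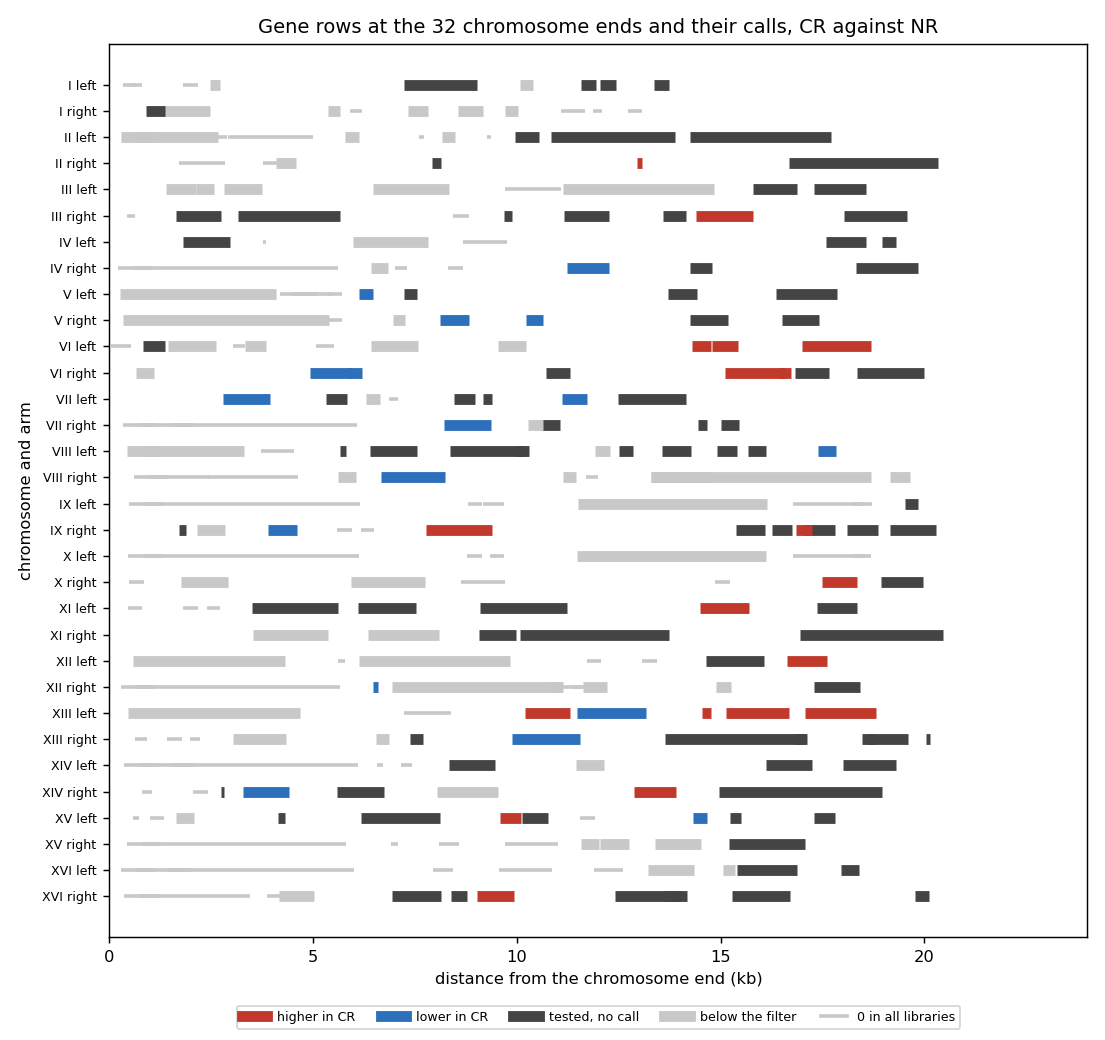
Positions of the subtelomeric gene rows at the 32 chromosome ends, 1 line per end, against distance from the end in kb. Red bars are rows called higher in CR, blue bars rows called lower, dark bars tested rows with no call, light bars rows with a mean below 1 FPKM, and thin lines rows listed at 0 in all libraries, which crowd the first 5 kb.

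The largest rise was that of MHT1. This gene, whose enzyme makes methionine from homocysteine with S-methylmethionine, had 61.3 and 123 FPKM in CR A and CR B, against 8.76 and 9.06 FPKM in the NR libraries. Both CR libraries lay far above both NR libraries, with a log2 fold of 3.15 (SE 0.36, limma adjusted p = 0.0066). AGP3, which encodes an amino acid permease, had 53.2 and 59.5 FPKM in CR, against 12.4 and 12.8 FPKM in NR, a log2 fold of 2.08 (SE 0.20, limma adjusted p = 0.0046). MHT1 lies at chrXII:16639-17613 and AGP3 at chrVI:17004-18680, and the replicates of both agreed closely in NR. The hexokinase gene HXK1 (chrVI:253592-255049), whose enzyme phosphorylates glucose, was the most abundant row near any end, with 10328 and 4921 FPKM in CR, against 1347 and 2279 FPKM in NR. The groups did not overlap, but the CR libraries differed more from each other than those of AGP3 did, and the log2 fold of 2.02 (SE 0.49) had a limma adjusted p = 0.033. YML131W, related to NADPH-dependent oxidoreductases, had 206 and 309 FPKM in CR, against 41.6 and 66.4 FPKM in NR (log2 fold 2.24).

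Neighbouring genes at the left end of chromosome XIII were also higher in CR. MSC1 (chrXIII:15135-16676), named for its part in meiotic recombination between sister chromatids, had 3506 and 3313 FPKM in CR, against 749 and 1098 FPKM in NR, with a log2 fold of 1.91 (limma adjusted p = 0.013). COX14 (chrXIII:14541-14753), which encodes an assembly factor of cytochrome c oxidase, had 3152 and 1860 FPKM in CR, against 666 and 740 FPKM in NR, with a log2 fold of 1.78. RSC9, for a subunit of the RSC chromatin remodeling complex, had 145 and 102 FPKM in CR, against 38.0 and 46.0 FPKM in NR, with a log2 fold of 1.51. In each of the 3 genes both CR libraries were above both NR libraries, which the rule for named rises required. Their neighbour ERO1 (chrXIII:11483-13174), whose product oxidises thiols in the endoplasmic reticulum for disulfide bond formation, went the other way, with 116 and 65.1 FPKM in CR, against 316 and 403 FPKM in NR. Its log2 fold was -2.03 (SE 0.33, limma adjusted p = 0.014). All 5 tested genes at this end, 1 of 32 ends, were thus called, beside 30.9% of all tested rows, and 1 of them opposed the rest.

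Other rises included uncharacterised or overlapping rows. YFR052C-A had 846 and 791 FPKM in CR, against 93.6 and 164 FPKM in NR (log2 fold 2.71), but it overlaps HXK1 and is not in RefSeq. YIR036W-A, which overlaps IRC24 and is not in RefSeq, had 73.8 and 272 FPKM in CR, against 31.3 and 31.5 FPKM in NR, with a limma adjusted p = 0.0485, and it lost its call under 7 alternatives. The use of strand in counting is not given in the sources used here, so reads of an overlapping pair cannot be told apart. YBR296C-A, a reading frame of 120 nt that overlaps no other row and whose product RefSeq names Tyc1p, had 963 and 2007 FPKM in CR, against 440 and 313 FPKM in NR. YOL163W, a putative transporter fragment, had 49.1 and 34.7 FPKM in CR, against 9.44 and 13.5 FPKM in NR. Of the 20 rows called higher, 4 lay outside the rule for named genes and are given because only they remained: YCR099C, YCR100C, YNR071C and the yapsin protease gene YPS6, with log2 folds of 1.09 to 1.12.

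Named falls with a known function included FET4, IRC7 and IMD2. FET4 (chrXIII:912880-914538), which encodes a low-affinity transporter of iron and other metals, had 15.6 and 17.9 FPKM in CR, against 148 and 134 FPKM in NR. Its groups were far apart and its replicates close, with a log2 fold of -3.002 (SE 0.20, limma adjusted p = 0.0027), and it is 1 of the 2 rows called whichever library was left out. IRC7 (chrVI:264204-265226), for a lyase that releases sulfur compounds from cysteine conjugates, had 15.1 and 6.65 FPKM in CR, against 55.5 and 55.5 FPKM in NR (log2 fold -2.35). IMD2 (chrVIII:554396-555967), for an inosine monophosphate dehydrogenase of guanine nucleotide synthesis, had 31.9 and 15.9 FPKM in CR, against 78.5 and 96.2 FPKM in NR (log2 fold -1.90). It has close relatives in the genome, and 51.3% of its 32-nt stretches were unique.

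Other falls were mostly of rows without a known role. YER188W had 15.8 and 7.05 FPKM in CR, against 86.7 and 77.1 FPKM in NR, and YER187W next to it had 75.9 and 66.2 FPKM in CR, against 179 and 226 FPKM in NR. Both were called, with log2 folds of -2.83 and -1.49. YEL074W, at the other end of the same chromosome and not in RefSeq, had 2.92 and 2.29 FPKM in CR, against 12.6 and 49.3 FPKM in NR, so its NR libraries differed widely from each other. YOL160W had 2.32 and 2.41 FPKM in CR, against 13.0 and 9.88 FPKM in NR. VEL1, named for the velum (surface film) of wine yeasts, had 3.10 and 2.89 FPKM in CR, against 12.5 and 9.63 FPKM in NR. YIR042C had 4.55 and 5.99 FPKM in CR, against 13.9 and 16.5 FPKM in NR. The groups of all these rows were apart, which the rule for named falls required. YLR466C-B (chrXII:1071594-1071710), a reading frame of 117 nt with 24.4% unique stretches that RefSeq does not list, was listed at 0 in both CR libraries, against 46.0 and 14.8 FPKM in NR (limma adjusted p = 0.0067), and no fold is given. Rows called lower outside the rule for named genes were YHL041W, YDR541C, YFR056C, which overlaps IRC7, and COS6, with log2 folds of -1.49, -1.11, -1.26 and -0.89.

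**Figure D3:**
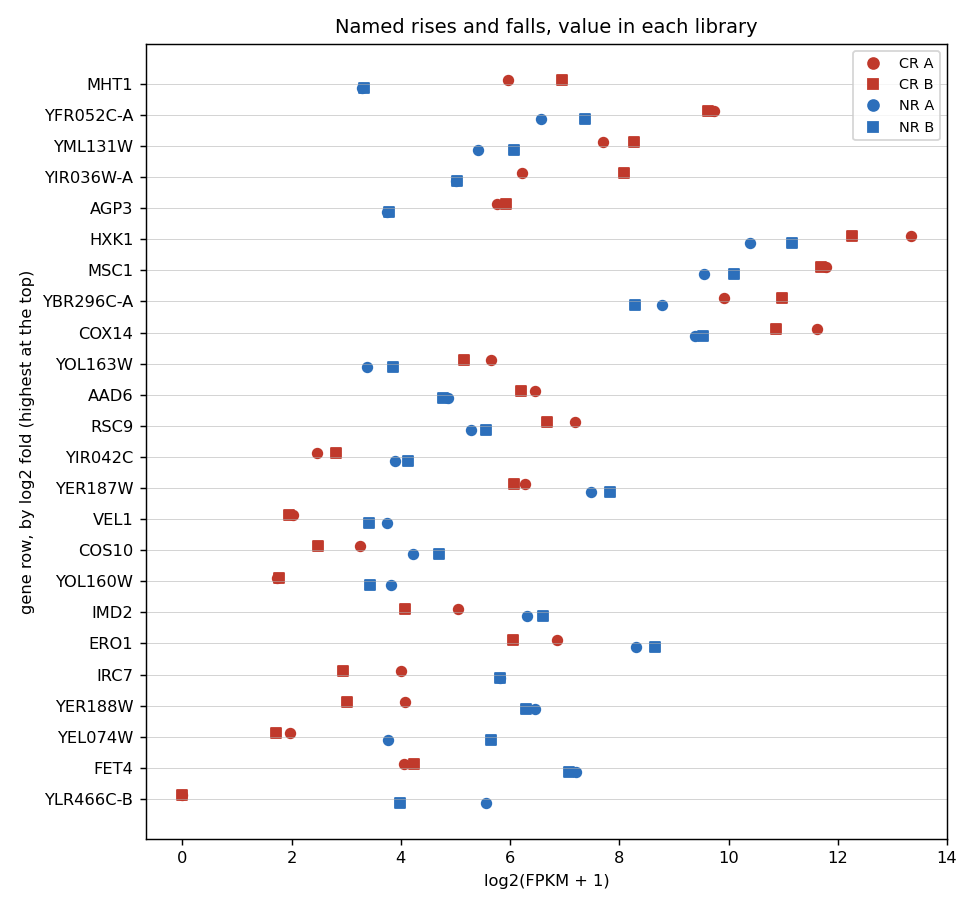
Values of the 12 largest rises and 12 largest falls chosen by rule, as log2(FPKM + 1), 1 line per gene row with the largest rise at the top. Red marks are CR and blue marks NR, circles replicate A and squares replicate B, each point being 1 library. The rule took only rows with groups apart, so no red mark can lie among the blue marks of its row.

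The COS genes were the largest family with expressed copies. All 11 COS rows of the window are in RefSeq, 2 were at 0 (COS2 and COS3), 2 had a mean below 1 FPKM (COS4 and COS5) and 7 were tested. COS10, COS12 and COS6 fell and COS9 rose, 4 of 7 beside 30.9% of all tested rows called in either direction, a set too small to read a difference from. The median log2 fold of the 7 was -0.89, with 6 negative, against 0.06 over all tested rows. COS10 had 8.55 and 4.56 FPKM in CR, against 17.8 and 25.1 FPKM in NR (log2 fold -1.60). COS12 had 2.14 and 1.55 FPKM in CR, against 6.83 and 7.21 FPKM in NR (log2 fold -1.50). COS6 had 31.1 and 26.1 FPKM in CR, against 53.1 and 53.7 FPKM in NR. These 3 rows were lower in each CR library than in either NR library. COS9 had the opposite order, with 25.0 and 29.7 FPKM in CR, against 8.10 and 9.89 FPKM in NR (log2 fold 1.51, SE 0.23, limma adjusted p = 0.012). COS8 had 59.1 and 56.1 FPKM in CR, against 71.7 and 57.5 FPKM in NR, with no call, and COS1 and COS7 had log2 folds of -1.04 and -0.60 with no call.

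The COS genes differed in how much of their sequence is unique. Aligned over the whole reading frame, COS2 was 100% identical to COS3, COS1 was 96.1%, COS4 95.7%, COS5 90.04%, COS6 88.8%, COS7 88.0%, COS8 83.0%, COS9 70.3%, COS10 61.8% and COS12 61.0%. The share of unique 32-nt stretches was 0% in COS2 and COS3, 46.3% in COS6 and 65.7% in COS8, and 97.0%, 98.4% and 100% in COS9, COS10 and COS12. Thus 3 of the 4 called COS genes were nearly free of repeated stretches, while the values of COS1, COS4, COS5, COS6 and COS7 come from genes with fewer than 50% unique stretches. COS12, with its many capitals in the sequences above, and COS3, with the same letters as COS2, are the extremes of this range.

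**Figure D4:**
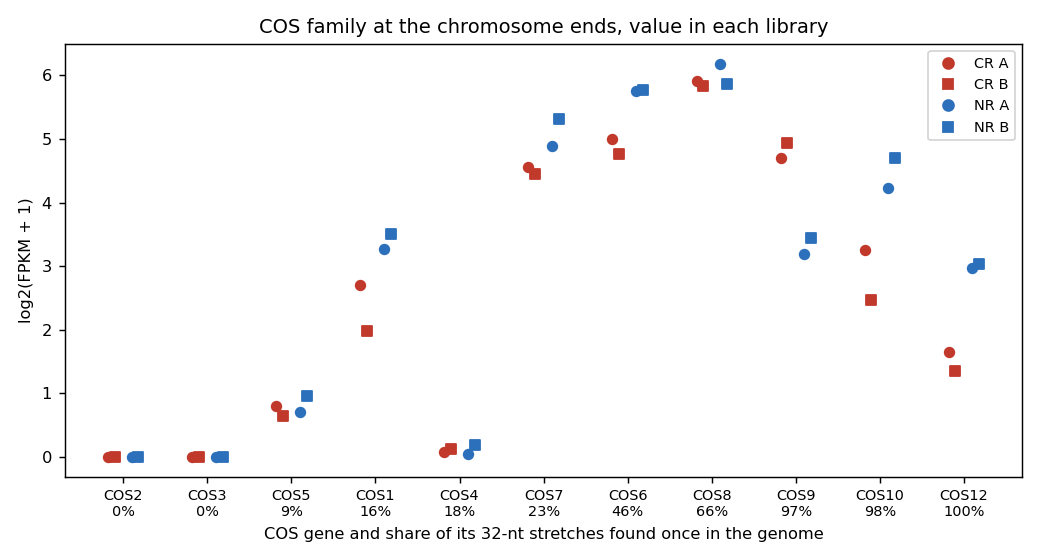
Level of the 11 COS genes near chromosome ends in each library, as log2(FPKM + 1), ordered by the share of their 32-nt stretches that occur once in the genome, given under each name. Red is CR and blue NR, circles replicate A and squares replicate B; COS2 and COS3, with no unique stretch, are listed at 0 in every library, and COS9 is the only gene with both red marks above both blue marks.

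The other repeated families gave almost no signal. All 8 YRF1 rows, for the Y' element helicase, were untested, with 6 at 0 and at most 0.014 FPKM in YRF1-2, in NR A. Of the 19 PAU rows, 15 were at 0 in all libraries and none was tested. PAU12 had 0 and 0 FPKM in CR, against 0.328 and 1.75 FPKM in NR, and PAU13 had 0.156 and 0.140 FPKM in CR, against 0.210 and 0 FPKM in NR. The 5 PAU rows outside the window were all tested, and 1, PAU23, was higher in CR. Sorbitol dehydrogenase genes SOR1 and SOR2 were at 0, as were the enolase-related ERR1 and ERR2, whereas ERR3 had 0.134 and 0.101 FPKM in CR, against 0.242 and 0.146 FPKM in NR. The maltose permease homolog MPH3 had 0.541 and 0.932 FPKM in CR, against 0.377 and 0.319 FPKM in NR, and MPH2 had 0.046 FPKM in CR A and 0 in the other libraries. HSP32, of the Hsp31-like chaperones, was at 0, and HSP33 had at most 0.195 FPKM. The vacuolar sorting receptor homologs VTH1 and VTH2 had at most 0.0050 and 0.043 FPKM. Unique stretches made up at most 38.4% of any PAU row in the window, in PAU3, and at most 24.9% of the other rows of this paragraph, in ERR3.

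Families with more distinct copies were measured better. Of the 7 AAD rows, named for proteins related to aryl alcohol dehydrogenases, 6 were tested and 3 of these rose. This stands beside 17.7% of all tested rows called higher, and the median log2 fold of the 6 was 0.70. The 3 were AAD6, with 87.2 and 72.4 FPKM in CR, against 27.96 and 26.2 FPKM in NR (log2 fold 1.52), AAD10, with 47.7 and 53.6 FPKM in CR, against 19.9 and 25.6 FPKM in NR (log2 fold 1.13), and AAD16, with 15.9 and 10.9 FPKM in CR, against 6.32 and 5.71 FPKM in NR (log2 fold 1.01). AAD6, which RefSeq lists as a pseudogene, and AAD16, which RefSeq does not list, lie next to each other on chromosome VI. They may therefore not be separate genes, and AAD16 had only 33.2% unique stretches. AAD3, AAD4 and AAD14 had log2 folds of -0.38, 0.39 and 0.28 with no call. In the arsenic resistance cluster at the right end of chromosome XVI, the transcription factor gene ARR1 rose, with 127 and 117 FPKM in CR, against 55.0 and 58.3 FPKM in NR (log2 fold 1.09, limma adjusted p = 0.016). The arsenate reductase gene ARR2 and the arsenite exporter gene ARR3 had log2 folds of 0.60 and 0.81 with no call. In all 3 ARR genes both CR libraries were above both NR libraries, beside 73.0% of all tested rows with groups apart in either direction. These 3 genes are too few to read a difference from.

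The list drawn up here for iron and siderophore uptake held 5 genes near the ends. Of these, 3 were tested and 1, FET4, was called, beside 30.9% of all tested rows, with a median log2 fold of 0.27 over the 3. GEX1 and GEX2, for which no role in iron uptake is shown here, averaged under 1 FPKM. The ferric reductase gene FRE2 had a log2 fold of 0.29 with no call. The siderophore transporter gene ARN2 had 48.6 and 36.6 FPKM in CR, against 32.4 and 37.3 FPKM in NR, with overlapping groups and no call. All 15 iron uptake genes of the list elsewhere were tested and 5 were higher, beside 17.7% of all tested rows, with a median log2 fold of 0.33. Among 5 exporter and transporter genes 0 were called by limma, beside 30.9% of all tested rows, a set too small to read a difference from. Of these 5, 0 had an unadjusted p below 0.05. The largest log2 fold of these was 0.86 in SEO1, a putative permease (limma unadjusted p = 0.054), and 1 of the 5, GIT1, a transporter of glycerophosphoinositol, had 4.29 and 4.13 FPKM in CR, against 4.37 and 4.68 FPKM in NR. NFT1, for a multidrug resistance type transporter, and SGE1, for a dye exporter, had log2 folds of -0.08 and 0.23. FLO10, for a flocculin of cell adhesion, had 6.94 and 6.37 FPKM in CR, against 3.77 and 4.34 FPKM in NR, apart in these libraries but with no call (log2 fold 0.60, limma adjusted p = 0.13, called only with no filter on low values).

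Several genes that the naming rule takes for abundance or by name had no call or were too low to test. CHA1, for the serine and threonine deaminase, had 87.5 and 34.1 FPKM in CR, against 81.7 and 29.0 FPKM in NR, so replicate A was high and replicate B low in both conditions. The D-lactate dehydrogenase gene DLD3 had 376 and 285 FPKM in CR, against 173 and 210 FPKM in NR, with groups apart and a limma adjusted p = 0.066, and was called without CR B (limma adjusted p = 0.012). HYR1, for a thiol peroxidase that senses hydroperoxides, had 675 and 629 FPKM in CR, against 496 and 548 FPKM in NR (limma adjusted p = 0.31). YMR315W-A had 219 and 197 FPKM in CR, against 271 and 217 FPKM in NR. YFR057W, a known target of telomeric silencing that lies 0.645 kb from its end and has no repeated stretch, had 0.295 and 0 FPKM in CR, against 0.133 and 0 FPKM in NR. The silent mating cassette genes HMLALPHA1 and HMLALPHA2 were at 0 in all libraries, with no unique stretch.

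Nearer the end more of the calls were lower in CR, and farther in more were higher. Within 10 kb, 3 of 44 tested rows were higher and 11 lower, with a median log2 fold of -0.14. At 10 to 20 kb 17 of 82 were higher and 6 lower, with a median of 0.26. In steps of 5 kb from the end inward, higher and lower calls by limma numbered 0 and 4 of 13 rows (1 and 5 at an unadjusted p below 0.05), 3 and 7 of 31, 8 and 5 of 37, and 9 and 1 of 45, and the median log2 fold was -0.60, -0.09, 0.22 and 0.32. At 20 to 40 kb 58 of 296 rows were higher and 39 lower (median 0.15), and farther in 1039 of 5899 and 777 (median 0.05). Among rows with 50% or more unique stretches, the medians of the 5 kb steps within 20 kb were -0.58, 0.08, 0.22 and 0.35. Of the rows left out by name, ADH7 and MAL31, at 6.465 and 8.709 kb, were called higher. The 1 left-out row called lower, ADH4, lay at 15.158 kb. The 4 rows called within 5 kb, all lower, were COS12, COS10, YIR042C and IRC7. This pattern was noticed in the data and no test of it was made. Without NR A limma called 0 higher and 3 lower within 10 kb (2 and 11 unadjusted) and 0 and 0 at 10 to 20 kb (15 and 8 unadjusted). Without NR B it called 0 and 2 within 10 kb (4 and 10 unadjusted) and 4 and 0 beyond (16 and 6 unadjusted). Without CR A they were 8 and 15 within 10 kb and 25 and 9 beyond, and without CR B 4 and 13 within 10 kb and 24 and 7 beyond. The median log2 fold stayed negative within 10 kb and positive beyond it in each of these 4 fits.

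**Figure D5:**
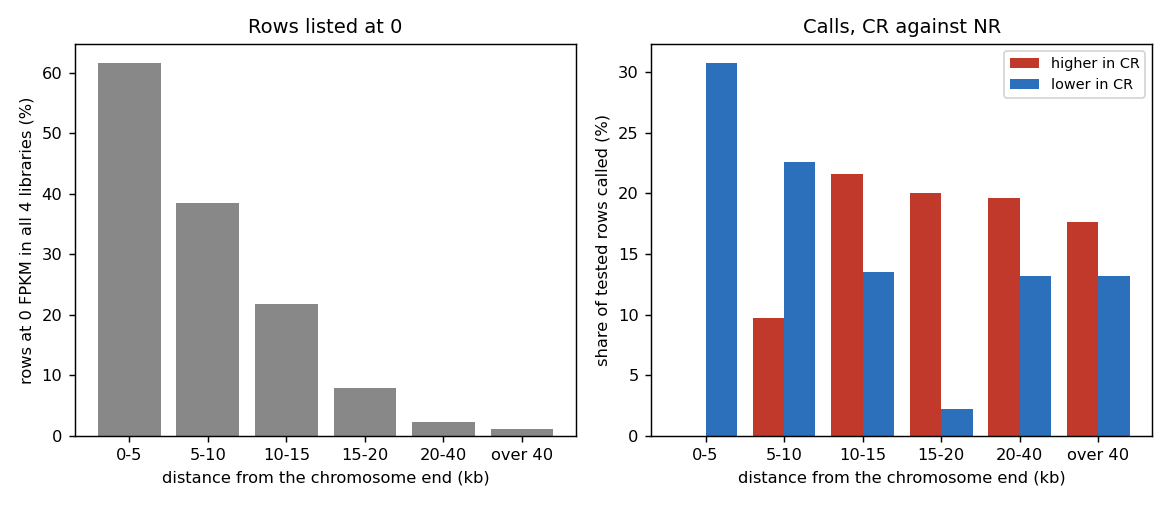
Left, share of gene rows listed at 0 FPKM in all 4 libraries, in %, by distance from the chromosome end in kb. Right, share of tested rows called higher (red) and lower (blue) in CR by limma, in % of the rows tested in that bin; within 5 kb 0 of 13 rows were higher and 4 lower, and at 15 to 20 kb 9 of 45 were higher and 1 lower.

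The ends differed in how much could be measured. Each of the 32 ends held 5 to 13 of the rows, and 21 ends had at least 1 call, 9 of them 2 or more. Calls were all higher at 7 ends, all lower at 9 and in both directions at 5. These counts stand beside 30.9% of all tested rows called (17.7% higher, 13.2% lower). Each end had few tested rows, and whether calls group by end was not tested. At the left end of chromosome VI the neighbours AAD16, AAD6 and AGP3 were all higher, and at the left end of chromosome VII VEL1 and COS12 were both lower. The right end of chromosome VI held both kinds, with HXK1 and YFR052C-A higher and IRC7 and YFR056C, which overlap, lower. The left end of chromosome X had 7 of 8 rows at 0 and was the only end with no tested row. The right end of chromosome IX and the left end of chromosome VIII had 9 tested rows each, with 3 and 1 calls.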

How the data were processed

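The authors deposited 1 table of FPKM with 1 column per library, replicates kept apart; all 4 columns were matched by name. The submitters' processing notes name the tools CASAVA 1.8.2, Bowtie and Cufflinks 2.0.2 and build sacCer2. Which settings were used is not given in the sources used here. Of 220 subtelomeric rows matched to RefSeq by locus tag, 217 sat at the R64 position after the start was moved by 1; positions are therefore R64, counted from 1. The other 78 rows were not in RefSeq. Limma 3.58.1 in R 4.3.3 (linear fit with intensity trend, two-sided, no covariate) was run on log2(FPKM + 1) over rows averaging at least 1 FPKM, and tested on simulated data. Python 3.11.15, pandas 2.3.3, NumPy 2.4.6, Biopython 1.88 and matplotlib 3.10.9 made the tables and plots.

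The rows, the 17 family lists and the tests were chosen with earlier results of these data known. The text names the 12 rises and 12 falls of greatest log2 fold among called rows that reached 10 FPKM in their higher group and had groups apart, up to 3 called genes per family (otherwise the 2 most abundant), the 8 most abundant rows and a list of sentinel genes, of which PAU7, OPT2 and AQY1 lie outside the window. Alternatives were 2 other pseudocounts, 2 other filters, 2 scalings, a fit without the intensity trend, a block for the replicate letter, omission of each library, 3 selections of rows, other windows and ends, and keeping the names left out. A selection of rows of 300 nt or longer and the split at 10 kb were chosen after seeing the data.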

Additional observations from a re-analysis of the deposited data

How the results depend on the processing

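The counts of 20 higher and 17 lower held within 1.5 times under other pseudocounts, filters, scalings, row selections and no intensity trend, and with the replicate block, where 22 were higher and 18 lower. The letters A and B were not shown to pair the samples, as deviations from the group mean correlated at 0.083 over 6355 rows and -0.026 over the 127 tested subtelomeric rows, with only 2 pairs. Leaving out 1 library gave 0 to 33 higher and 2 to 24 lower rows, and 116 to 3288 calls over all rows, against 1962. No filter gave 1242 calls over all rows. A window of 10000 nt gave 2 higher and 10 lower rows, and one of 30000 nt gave 45 and 30. Within 10 kb higher calls ran from 0 to 8 and lower from 2 to 15 without 1 library, and beyond it from 0 to 25 and 0 to 9; no filter gave 5 higher within 10 kb, and a mean of 10 FPKM or more gave 3 lower beyond it. The median log2 fold of 0.13 was 0.17 and 0.090 with pseudocounts of 0.1 and 5, 0.00 with no filter, 0.22 with a mean of 10 FPKM or more, 0.040 with libraries scaled to a common median (other nuclear rows -0.063), 0.18 after quantile normalization, 0.095 to 0.20 without 1 library, 0.10 for rows at their R64 position, 0.056 without overlapping rows, 0.19 with 50% or more unique stretches, -0.19 and 0.16 in windows of 10000 and 30000 nt, and 0.21 with the left-out names kept. Scaling to a common median moved the median of all rows to -0.06, against 0.06 as deposited. Of the named genes with no call, 4 changed sign: without 1 library CHA1 ran from -0.57 to 0.89, COS8 from -0.31 to 0.0028 and NFT1 from -0.23 to 0.069, and after quantile normalization GIT1 had 0.18 and NFT1 0.12. Of 29 named calls, 2 were kept under every alternative that gave a value. The cause of these changes was not tested. Depth is unknown, so no counting interval was drawn for low rows.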

Other observations

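Several genes for core cell functions lie within 20 kb of an end and had no call; they were chosen after their values were seen. RPD3, for a histone deacetylase, had 127 and 126 FPKM in CR, against 90.7 and 103 FPKM in NR. PKC1, for protein kinase C of the cell wall integrity pathway, had 98.8 and 94.9 FPKM in CR, against 75.1 and 65.8 FPKM in NR. The proteasome subunit gene RPN12 had 186 and 189 FPKM in CR, against 151 and 174 FPKM in NR. LYS1, for the last step of lysine synthesis, had 65.8 and 54.0 FPKM in CR, against 46.7 and 44.3 FPKM in NR. RET2, for a subunit of the coatomer of vesicle transport, had 57.6 and 35.0 FPKM in CR, against 49.5 and 43.3 FPKM in NR. The CR libraries were above the NR libraries in RPD3, PKC1, RPN12 and LYS1 and on both sides of them in RET2. This stands beside 73.0% of all tested rows with groups apart in either direction. The log2 folds ran from -0.04 in RET2 to 0.46 in PKC1. The limma adjusted p of these 5 genes was 0.13 to 0.92.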
